A study of Mus musculus with 6 samples.

Results

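Endothelin and nitric oxide regulators were followed in 4T1 cells, an established mouse mammary carcinoma line. The genes were Edn1, Ece1, Ednra, Ednrb, Ddah1, Ddah2 and Nos2, 7 genes named by symbol in the mm10 annotation. Values were used for 6 of them, out of 26094 genes in the deposited table, and 5 were among the 11842 genes abundant enough to test. Ednrb was not analysed here. They were chosen by their FPKM values in the comparison described below, whose results were already known, so their own levels and differences are given as a description, without p-values.

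RNA was sequenced from 3 libraries of Limch1_OE cells, selected after lentiviral delivery of mouse Limch1 in the PLVX-ires-neo vector, and from 3 libraries of Vector cells, which carried the empty vector and were selected with antibiotic in the same way. LIMCH1 is an actin-associated protein that activates non-muscle myosin II. The labels do not tell whether the libraries within a group stem from separate infections, clones or cultures, so p-values measure only the spread between libraries, which may be technical, and uninfected cells were not analysed here. The comparison asks how added Limch1 changes the mRNA levels of these cells.

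Endothelin-1 is a short peptide, known above all as a vasoconstrictor made by endothelium, that is cut from a larger precursor first by furin-type proteases and then by endothelin-converting enzyme. It acts through the G protein-coupled receptors ETA and ETB. Nitric oxide, made from arginine by nitric oxide synthases, opposes it in blood vessels and is also made in large amounts by the inducible synthase of macrophages and many tumour cells. Asymmetric dimethylarginine, released from methylated proteins, inhibits the synthases, and the DDAH family is named after its hydrolysis. Whether either DDAH protein breaks it down in these cells was not measured.

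In Limch1_OE cells the ligand gene Edn1 was 2.52-fold higher and the DDAH family gene Ddah2 3.57-fold higher than in Vector cells, as ratios of mean FPKM. The inducible synthase gene Nos2 was 1.83-fold lower. The converting enzyme gene Ece1 differed by 1.22-fold, higher in Limch1_OE, and Ddah1, the paralogue of Ddah2, averaged 26.03 FPKM in Limch1_OE, against 25.7 FPKM in Vector, with overlapping libraries. Among the receptor genes, Ednra was listed at or next to 0 throughout, too low to use, and Ednrb was not analysed here.

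The windows around the annotated starts of 3 genes are shown because Edn1 and Ddah2 were both higher in Limch1_OE whereas Ddah1, the paralogue of Ddah2, was not. They come from RefSeq on build GRCm38.p6, the assembly also called mm10, and run from 250 bases before the start to 50 bases from it, on the plus strand, 5′ to 3′. Such a window was found for 6 of the 7 genes, all but Nos2. The window of Ece1, which was also higher in Limch1_OE, is not shown and its matches were not listed. As the 3 genes shown were chosen by these results, nothing is read from which of them hold a motif. Edn1 lies at chr13:42301226-42301525, Ddah2 at chr17:35058785-35059084 and Ddah1 at chr3:145758442-145758741. Capitals mark every match, on either strand, to 6 motifs. These are the TATA box TATAAA, the GC box GGGCGG, the GATA motif AGATAA, the AP-1 motif TGANTCA, the AP-1-like motif TGACTAA described in the human endothelin promoter, and ACGTG, a form of the hypoxia response core. Its other form, GCGTG, was not searched and is not capitalised.
Edn1: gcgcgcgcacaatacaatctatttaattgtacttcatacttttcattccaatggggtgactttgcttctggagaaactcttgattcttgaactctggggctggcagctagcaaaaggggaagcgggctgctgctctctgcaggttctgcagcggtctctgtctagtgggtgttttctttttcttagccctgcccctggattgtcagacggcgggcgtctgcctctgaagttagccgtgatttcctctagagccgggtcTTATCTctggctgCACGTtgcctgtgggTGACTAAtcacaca
Ddah2: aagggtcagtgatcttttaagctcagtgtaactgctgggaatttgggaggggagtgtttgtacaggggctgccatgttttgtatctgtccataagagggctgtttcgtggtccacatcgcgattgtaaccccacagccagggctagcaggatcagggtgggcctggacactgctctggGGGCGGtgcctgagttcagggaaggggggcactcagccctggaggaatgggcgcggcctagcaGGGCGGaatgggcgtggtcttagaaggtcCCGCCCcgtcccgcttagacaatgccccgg
Ddah1: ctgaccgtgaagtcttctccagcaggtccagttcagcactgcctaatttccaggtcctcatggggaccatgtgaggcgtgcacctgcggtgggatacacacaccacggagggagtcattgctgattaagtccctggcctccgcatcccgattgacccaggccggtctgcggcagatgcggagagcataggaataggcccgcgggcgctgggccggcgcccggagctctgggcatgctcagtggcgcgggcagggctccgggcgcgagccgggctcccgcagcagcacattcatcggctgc

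Positions in the Edn1 window were counted from the annotated start as base 1. Matches began at base 9 for the GATA motif, at base 22 for the hypoxia core and at base 37 for the AP-1-like motif. The first 2 of these were on the opposite strand. Where transcription starts in these cells was not measured, so the place of these matches relative to the start used is not known. Of all 32851 windows in the RefSeq table, 11.2% held the GATA motif, 19.6% the hypoxia core in the form ACGTG and 2.35% the AP-1-like motif. The Ddah2 window held 3 GC boxes, beginning 72 and 9 bases before the start and at base 21 after it, the last on the opposite strand; a GC box occurred in 35.7% of windows. None of these 6 motifs, as spelled above, matched in the Ddah1 window. The unsearched form of the hypoxia core, GCGTG, occurs in the printed Ddah1 and Ddah2 windows, so these lack only the form ACGTG. The TATA box (13.6% of windows) and the AP-1 motif (7.81%) matched in none of the 3 windows. Bases outside the windows were not searched, so a TATA box more than 50 bases past an annotated start would be missed. The G and C content of the windows was 51.3% for Edn1, 59.7% for Ddah2 and 65.7% for Ddah1, against a median of 52.7% over all windows. A match is only a run of letters, and binding at these places was not measured.

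The deposited values are FPKM, fragment counts scaled by transcript length and by the mapped total of the library, and were summed here over the listed transcripts of each gene. They do not give the sequencing depth. Limch1 itself was at 23.96, 23.31 and 25.69 FPKM in the Limch1_OE libraries, against 0.25, 0.15 and 0.1 FPKM in the Vector libraries, in the direction the labels give. Every gene that reached 1 FPKM in 3 or more libraries was compared by limma on log2(FPKM + 1), with Benjamini-Hochberg adjustment over all such genes, and a gene is called at an adjusted p under 0.05. Log2 fold changes are Limch1_OE minus Vector on that scale, which understates the change of low genes. Calls were common, at 34.6% of all tested genes, with 20.2% called higher and 14.4% called lower. With another scaling, by the median ratio between libraries, 1900 genes were higher and 2052 lower, in place of 2388 and 1706. RNAs that also move with RNA quality differed between the groups: mitochondrially encoded mRNAs took 5.89 to 8.20% of all FPKM in Limch1_OE, against 4.39 to 5.10% in Vector, and the nuclear RNA Malat1 was at 77.6 to 91.5 FPKM in Limch1_OE, against 40.2 to 45.2 FPKM in Vector. Limch1_OE replicate 1, which held the highest of those values, stood apart from the other Limch1_OE libraries on the second principal component (8.98% of the variance). The part of these differences in the results below was not tested.

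Endothelin and nitric oxide are made by endothelium and macrophages as well, so markers of other cell types were read. Epithelial keratins and adhesion genes marked the cells, with 5 markers summing to 1183 to 1308 FPKM in Limch1_OE, against 1261 to 1301 FPKM in Vector. Most of that sum came from the keratins Krt8 and Krt18, whereas the adhesion genes fell: Epcam was at 74.33 to 80.61 FPKM in Limch1_OE, against 104.3 to 109.7 FPKM in Vector (log2 fold change -0.44, limma adjusted p = 0.000245), and Cdh1 at 248.8 to 262.0 FPKM in Limch1_OE, against 285.3 to 297.5 FPKM in Vector (log2 fold change -0.18, limma adjusted p = 0.0143), both without overlap. Their part in the results below was not tested. All 6 endothelial markers were below 1 FPKM in every library and summed to 0.15 to 0.39 FPKM in Limch1_OE, against 0.33 to 0.43 FPKM in Vector, and no library had Vwf above 0.01 FPKM. The 4 macrophage and leukocyte markers with values summed to 0.09 to 0.17 FPKM in Limch1_OE, against 0.14 to 0.40 FPKM in Vector, with Ptprc at no more than 0.01 FPKM in any library. The 4 smooth muscle markers summed to at most 0.21 FPKM in Limch1_OE, against 0.07 FPKM in Vector. Of 3 fibroblast markers with values, Pdgfra, which carried most of the sums of 1.78 to 2.02 FPKM in Limch1_OE, against 1.33 to 1.62 FPKM in Vector, reached 1 FPKM. In a bulk library, fewer cells of a type and less RNA per cell cannot be told apart.

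**Figure D1:**
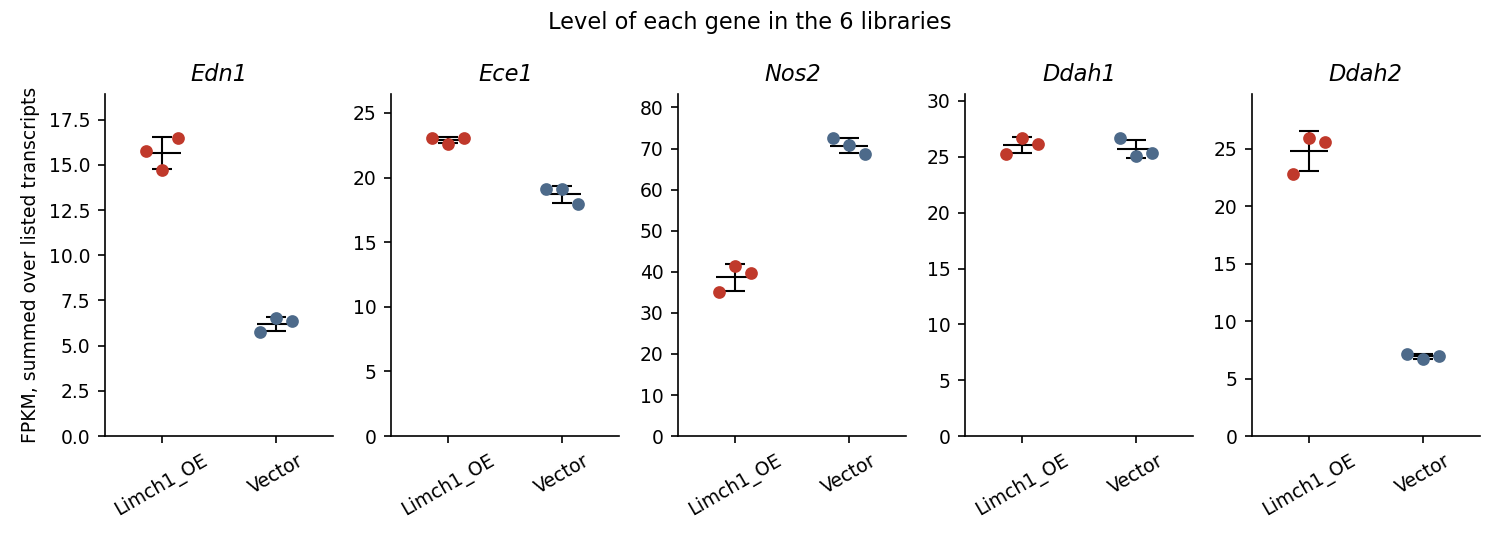
Level of Edn1, Ece1, Nos2, Ddah1 and Ddah2 in FPKM (vertical axes, each from 0) in the 3 Limch1_OE libraries (red points, left) and the 3 Vector libraries (blue points, right), with bars for mean and SD. The groups are apart for Edn1, Ece1, Nos2 and Ddah2, and overlap for Ddah1.

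Edn1 (ENSMUSG00000021367, mm10 chromosome 13, 42301476 to 42307990, plus strand) encodes the endothelin-1 precursor. Its single annotated transcript, of 5 exons, stood at 15.74, 14.7 and 16.47 FPKM in Limch1_OE replicates 1 to 3, against 5.75, 6.51 and 6.34 FPKM in Vector replicates 1 to 3. Every Limch1_OE library was thus well above every Vector library. The means were 15.6 ± 0.890 FPKM in Limch1_OE, against 6.20 ± 0.399 FPKM in Vector (SD, n = 3 each), and the log2 fold change was 1.21 (SE 0.07). Only 20 of the 11842 tested genes had a higher log2 fold change. Its mean exceeded or equalled that of 58.8% of tested genes in Limch1_OE and of 31.1% in Vector. An antisense gene, Gm47118, shares exon sequence with Edn1 and was at 0.61, 1.09 and 1.09 FPKM in Limch1_OE, against 0.53, 0.64 and 0.56 FPKM in Vector. Whether the counting used strand is not given in the sources used here, so reads of this overlap cannot be assigned to either gene. The listed level of Gm47118 was small beside that of Edn1, but it depends on that same assignment.

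Of the other endothelin genes, Edn2 did not exceed 0.03 FPKM in any library, and Edn3 was not analysed here. Ece1 (ENSMUSG00000057530, chromosome 4, 137862237 to 137965229, plus strand) encodes the membrane protease that releases active endothelin-1 from its intermediate. It was at 23.04, 22.62 and 23.02 FPKM in Limch1_OE, against 19.1, 19.09 and 17.96 FPKM in Vector. The groups did not overlap, though the gap was small. Means were 22.9 ± 0.237 FPKM in Limch1_OE, against 18.7 ± 0.655 FPKM in Vector (SD, n = 3 each), with a log2 fold change of 0.28 (SE 0.05). The principal transcript Ece1-201 carried 98.5 to 99.0% of the gene in Limch1_OE and 98.1 to 99.0% in Vector. The second converting enzyme gene, Ece2, did not exceed 0.05 FPKM.

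Of 10 genes for endothelin ligands, processing and clearance outside the members, Edn2, Edn3 and Ece2 included, 6 had values and 3 were tested. Of those, 2 fell and none rose, where 14.4% of all tested genes were called lower and 20.2% higher. The median log2 fold change was -0.21, which is the value of Furin, against 0.04 over all tested genes. With 3 genes, nothing is read from this about the list. Pcsk7, a furin-like convertase, was at 2.57, 2.64 and 2.53 FPKM in Limch1_OE, against 3.8, 3.6 and 4.13 FPKM in Vector (log2 fold change -0.43, SE 0.08, limma adjusted p = 0.00397). It no longer passed when its most abundant transcript replaced the sum (limma adjusted p = 0.147). Furin, which makes the first cut in the precursor, was at 42.03, 46.26 and 46.3 FPKM in Limch1_OE, against 51.59, 55.08 and 49.78 FPKM in Vector, a log2 fold change of -0.21 (SE 0.06, limma adjusted p = 0.022). That call ended without Vector replicate 1 (0.0572) or Vector replicate 2 (0.0801), with quantile normalization (0.0535), with no filter on low values (0.0604) and with the most abundant transcript (0.282). The lysosomal peptidase gene Ctsa, which degrades endothelin-1, averaged 21.3 FPKM in Limch1_OE, against 19.96 FPKM in Vector, and did not pass (limma adjusted p = 0.421). Mme, encoding the peptidase neprilysin, did not exceed 0.04 FPKM.

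Ednra (ENSMUSG00000031616, chromosome 8, 77663031 to 77724464, minus strand), the gene for the ETA receptor, was listed at 0.01 FPKM in Limch1_OE replicate 3 and at 0 in the other 5 libraries. No difference can be read at such levels. Among the G proteins, phospholipases, arrestins and receptor kinase through which endothelin receptors and many others signal, 8 of 11 genes were tested. Of these 1 rose and none fell, with a median log2 fold change of -0.01. Gnaq, the Gq alpha subunit, was at 18.14, 17.96 and 15.83 FPKM in Limch1_OE, against 15.75, 14.41 and 14.61 FPKM in Vector (log2 fold change 0.20, SE 0.07, limma adjusted p = 0.0491). The adjusted p rose above the threshold in 9 of 15 alternatives, which included leaving out any 1 Vector library or Limch1_OE replicate 1 or 2, and reached 0.149. The highest of the others, the receptor kinase gene Grk2, averaged 47.0 ± 2.94 FPKM in Limch1_OE, against 52.4 ± 1.04 FPKM in Vector, and did not pass (limma adjusted p = 0.0551). With median-ratio scaling it did (0.0269, lower in Limch1_OE).

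Nos2 (ENSMUSG00000020826, chromosome 11, 78920787 to 78960254, plus strand) encodes the inducible nitric oxide synthase. It was at 35.02, 41.36 and 39.67 FPKM in Limch1_OE, against 72.52, 70.95 and 68.75 FPKM in Vector. All Limch1_OE libraries lay far below all Vector libraries, and Limch1_OE replicate 1 was the lowest. Means were 38.7 ± 3.28 FPKM in Limch1_OE, against 70.7 ± 1.89 FPKM in Vector (SD, n = 3 each), and the log2 fold change was -0.86 (SE 0.06). Nos2 had the 254th lowest log2 fold change of the 11842 tested genes. It was still the most abundant of the 5 tested genes in each group, exceeding or equalling 83.7% of tested genes in Limch1_OE and 91.9% in Vector. The coding transcript Nos2-201, of 27 exons, carried 99.95 to 100.0% of the sum in every library, and 2 of its 3 annotated transcripts were listed.

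The constitutive synthase genes, neuronal Nos1 and endothelial Nos3, did not exceed 0.02 and 0.09 FPKM. Of 9 synthase and partner genes outside the members, Nos1 and Nos3 included, 5 were tested, of which 1 rose and none fell (median log2 fold change 0.04). Cav1, encoding caveolin-1, which binds and restrains endothelial synthase, was at 30.78, 29.74 and 27.65 FPKM in Limch1_OE, against 25.9, 23.36 and 23.61 FPKM in Vector (log2 fold change 0.27, SE 0.06, limma adjusted p = 0.0109). It did not pass with its most abundant transcript (limma adjusted p = 0.168). The chaperone gene Hsp90ab1, the most abundant of those that did not pass, was at 1829 to 1981 FPKM in Limch1_OE, against 1759 to 1784 FPKM in Vector (log2 fold change 0.11, limma adjusted p = 0.176). It passed without Limch1_OE replicate 1 (0.0439).

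Of 5 tested factors known to act on Nos2 transcription, 1 fell and 1 rose, with a median log2 fold change of 0.03; the one that rose, Hif1a, is described with the factors of Edn1 below. Irf1, an interferon-induced factor, was at 88.76, 100.62 and 101.2 FPKM in Limch1_OE, against 123.97, 124.08 and 128.62 FPKM in Vector (log2 fold change -0.37, SE 0.06, limma adjusted p = 0.00175). The NF-kB subunit gene Rela was the most abundant of those that did not pass, at 46.0 ± 7.27 FPKM in Limch1_OE, against 41.1 ± 2.36 FPKM in Vector (limma adjusted p = 0.278).

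Synthase activity needs tetrahydrobiopterin, and of 5 tested genes for this cofactor 1 fell and none rose (median log2 fold change -0.10). The one that fell was Gch1, encoding GTP cyclohydrolase, the first and limiting enzyme of its synthesis. Gch1 was at 2.1, 2.63 and 2.57 FPKM in Limch1_OE, against 3.51, 3.75 and 3.95 FPKM in Vector, without overlap (log2 fold change -0.47, SE 0.09, limma adjusted p = 0.00553). Qdpr, which recycles the cofactor, averaged 34.8 ± 3.36 FPKM in Limch1_OE, against 36.2 ± 0.679 FPKM in Vector, and did not pass (limma adjusted p = 0.546). In arginine supply and use, 1 of 6 tested genes fell and none rose (median 0.04). This was Odc1, which opens polyamine synthesis from ornithine, at 152.4, 154.9 and 160.99 FPKM in Limch1_OE, against 254.93, 237.08 and 247.3 FPKM in Vector (log2 fold change -0.66, SE 0.05, limma adjusted p = 1.76e-05). The ornithine aminotransferase gene Oat, the most abundant over all 6 libraries of those that did not pass, averaged 38.4 ± 1.99 FPKM in Limch1_OE, against 40.1 ± 0.243 FPKM in Vector (limma adjusted p = 0.372). The arginine importer gene Slc7a1, named after its values were seen, averaged 36.8 ± 0.857 FPKM in Limch1_OE, against 40.5 ± 1.68 FPKM in Vector, and did not pass (limma adjusted p = 0.0627), except with median-ratio scaling (0.025, lower in Limch1_OE).

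Ddah1 and Ddah2 are paralogues on different chromosomes. Ddah2 (ENSMUSG00000007039, chromosome 17, 35059035 to 35062095, plus strand) was at 22.76, 25.9 and 25.6 FPKM in Limch1_OE, against 7.11, 6.73 and 6.97 FPKM in Vector. The groups were far apart, and the Vector libraries were close to each other. Means were 24.8 ± 1.73 FPKM in Limch1_OE, against 6.94 ± 0.192 FPKM in Vector (SD, n = 3 each), and the log2 fold change of 1.70 (SE 0.07) was the 6th highest of the 11842 tested genes. Ddah1 (ENSMUSG00000028194, chromosome 3, 145758675 to 145894277, plus strand) was at 25.28, 26.66 and 26.15 FPKM in Limch1_OE, against 26.65, 25.11 and 25.33 FPKM in Vector, and the groups overlapped. Its log2 fold change was 0.02 (SE 0.05), with a 95% confidence interval of -0.09 to 0.13. A processed pseudogene, Rpl36a-ps2, lies inside Ddah1 on the same strand without touching its exons. It was listed at 33.55 to 35.44 FPKM in Limch1_OE, against 19.13 to 23.52 FPKM in Vector. As a copy of another gene, it may share reads with that gene, which was not tested.

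The sum of both genes was 50.8 ± 2.41 FPKM in Limch1_OE, against 32.6 ± 1.002 FPKM in Vector (SD, n = 3 each). Ddah2 made up 47.4, 49.3 and 49.5% of it in Limch1_OE, against 21.1, 21.1 and 21.6% in Vector. This sum is of RNA levels and restates the change of Ddah2. The enzyme activity of either protein was not measured. By transcript, the principal Ddah2-201, of 7 exons, stood at 20.11, 24.69 and 24.76 FPKM in Limch1_OE, against 6.92, 6.72 and 6.93 FPKM in Vector. Ddah2-204, a coding transcript whose annotated start at 35059101 lies downstream of that of Ddah2-201 at 35059035, was at 2.35, 0.49 and 0.61 FPKM in Limch1_OE with 0 listed for all 3 Vector libraries. It held 10.3% of the gene in Limch1_OE replicate 1 and 1.89 and 2.38% in replicates 2 and 3. Ddah2-202 was at 0.17, 0.71 and 0.16 FPKM in Limch1_OE, against 0.15, 0 and 0 FPKM in Vector. With Ddah2-201 in place of the sum, the log2 fold change was 1.62.

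**Figure D2:**
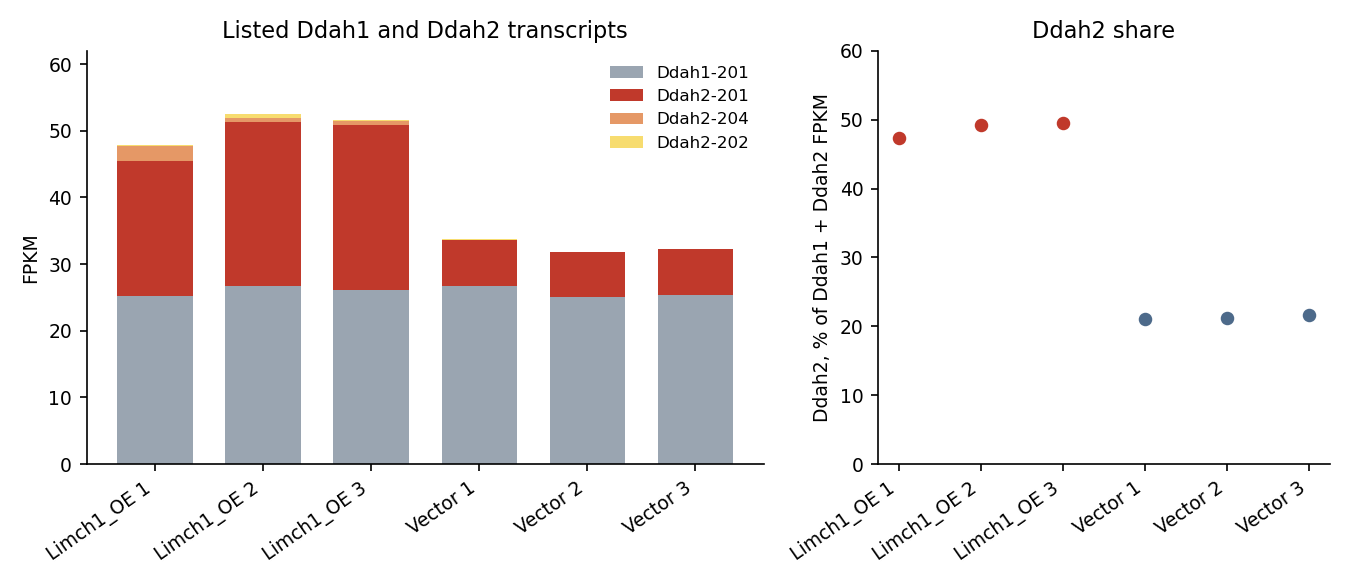
Left, FPKM of the Ddah1 and Ddah2 transcripts in each library, stacked, leaving out Ddah1-203 and Ddah2-203, which averaged under 0.1 FPKM. Right, Ddah2 as a percentage of the Ddah1 and Ddah2 sum, at 47.4 to 49.5% in Limch1_OE (red) and 21.1 to 21.6% in Vector (blue); the grey Ddah1 part is level across all 6 bars on the left.

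Methylarginines come from proteins modified by the PRMT enzymes. Of 7 other tested genes of methylarginine formation, 2 rose and 1 fell, with a median log2 fold change of -0.02. Prmt1, the main enzyme of asymmetric dimethylation, was at 91.12, 111.61 and 116.69 FPKM in Limch1_OE, against 71.28, 71.66 and 70.94 FPKM in Vector (log2 fold change 0.56, SE 0.08, limma adjusted p = 0.00136). The groups did not overlap, and Limch1_OE replicate 1 was the lowest of its group. Prmt3, which modifies a ribosomal protein, was at 21.54, 19.54 and 20.4 FPKM in Limch1_OE, against 16.12, 17.49 and 18.51 FPKM in Vector (log2 fold change 0.23, SE 0.07, limma adjusted p = 0.0265). Prmt2 was at 11.84, 14.16 and 13.24 FPKM in Limch1_OE, against 14.87, 15.38 and 15.76 FPKM in Vector (log2 fold change -0.22, SE 0.07, limma adjusted p = 0.0412). Neither of the last 2 calls was steady. Prmt3 lost it in 7 of 15 alternatives, among them without Limch1_OE replicate 1 (0.0676) or 3 (0.052) and without Vector replicate 1 (0.099) or 2 (0.0632). Prmt2 lost it in 8 of 15, among them without any 1 Vector library or Limch1_OE replicate 1 or 3 (up to 0.116), and its most abundant transcript had a log2 fold change of 1.33, of the opposite sign (limma adjusted p = 0.204). Carm1, the most abundant of those that did not pass, averaged 62.1 ± 1.81 FPKM in Limch1_OE, against 57.1 ± 2.75 FPKM in Vector (limma adjusted p = 0.1); it passed with quantile normalization (0.03).

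On the side of the response to nitric oxide, the soluble guanylate cyclase gene Gucy1a1 gave no usable level. It was listed at 0 in 5 libraries and at 0.02 FPKM in Vector replicate 3. Gucy1a2 and Gucy1b1, of the same enzyme, were not analysed here. Pde5a, whose product degrades cyclic GMP, did not exceed 0.08 FPKM. All 4 tested genes of response and removal missed the threshold (median log2 fold change 0.06), among them Adh5, which reduces S-nitrosoglutathione, at 87.6 ± 7.42 FPKM in Limch1_OE, against 84.7 ± 4.49 FPKM in Vector (limma adjusted p = 0.624). At an unadjusted p under 0.05, limma gave 1 of the 4, Vasp, named here after its values were seen. Vasp, an actin regulator and known substrate of cyclic GMP-dependent kinase, was at 54.0 ± 4.15 FPKM in Limch1_OE, against 61.5 ± 3.69 FPKM in Vector (log2 fold change -0.19, limma adjusted p = 0.0594), and passed with median-ratio scaling (0.029) and without Limch1_OE replicate 2 (0.0455).

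Among 5 tested factors known to act on Edn1, 1 rose and 1 fell (median log2 fold change -0.06). Hif1a, the oxygen-regulated factor also known to act on Nos2, was at 51.08, 47.41 and 43.45 FPKM in Limch1_OE, against 35.44, 36.58 and 35.55 FPKM in Vector (log2 fold change 0.39, SE 0.06, limma adjusted p = 0.00196), and did not pass with its most abundant transcript (0.209). Foxo1, a forkhead factor, was at 5.12, 4.79 and 5.06 FPKM in Limch1_OE, against 7.17, 6.76 and 6.48 FPKM in Vector (log2 fold change -0.38, SE 0.07, limma adjusted p = 0.00382). Smad4, the shared partner of the TGF-beta factors, was the most abundant of those that did not pass, at 34.2 ± 1.64 FPKM in Limch1_OE, against 36.9 ± 1.81 FPKM in Vector (limma adjusted p = 0.182).

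**Figure D3:**
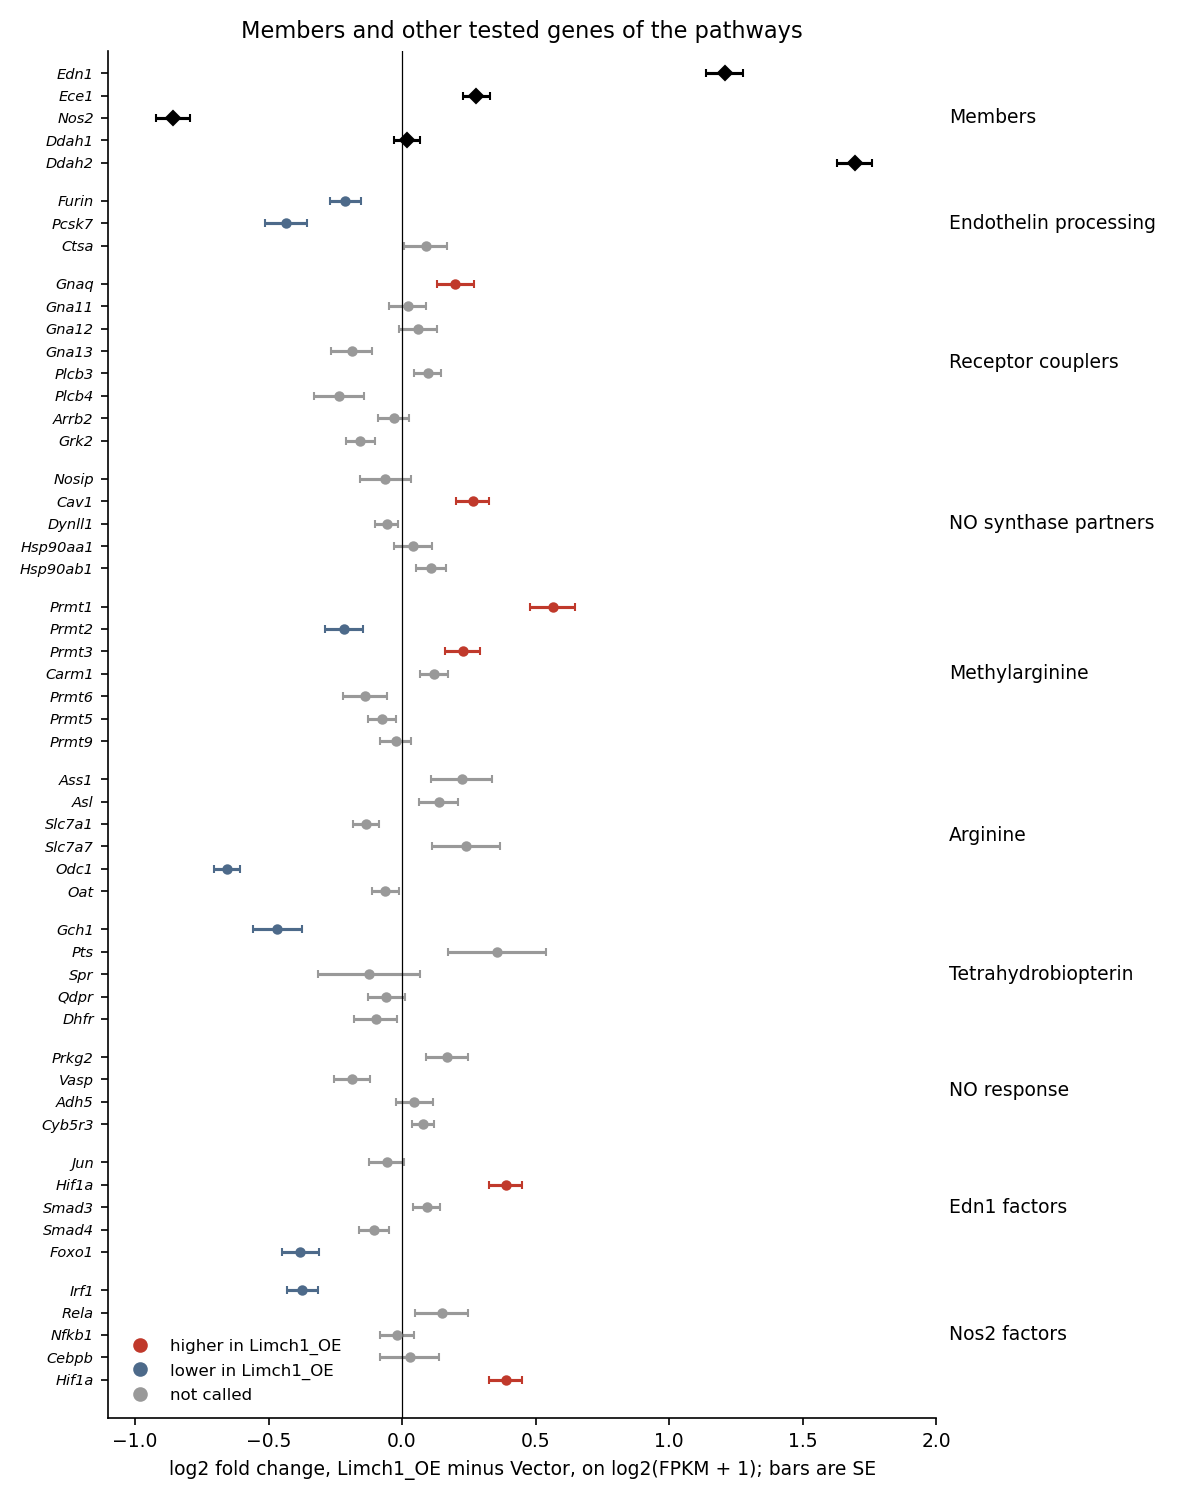
Log2 fold change on log2(FPKM + 1), Limch1_OE minus Vector (horizontal axis, bars are SE), of the 5 tested members (black diamonds, not coloured by call) and of the tested genes of 9 pathway lists, red where called higher, blue where called lower and grey where not called. Outside the members, Odc1 at -0.66 and Prmt1 at 0.56 lie farthest from 0 on either side, and Hif1a appears under both of the lists that hold it.

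Counting each gene once, 47 other genes of these pathways were tested, of which 5 rose and 7 fell, 25.5% against 34.6% of all tested genes. With median-ratio scaling 3 were higher and 11 lower in Limch1_OE, and with the most abundant transcript 1 was higher and 4 lower. Their median log2 fold change was -0.02, against 0.04 over all tested genes. Of the members, 3 were called higher (Edn1, Ece1 and Ddah2), 1 lower (Nos2) and 1 not (Ddah1), with a median of 0.28. As members were named with these results known, nothing is read from that count. The 4 called members were also those whose groups did not overlap, which held for 49.1% of all tested genes (28.6% higher and 20.5% lower in Limch1_OE). Without Limch1_OE replicate 1, 4 members and 12 pathway genes were called, but not the same pathway genes: Gnaq, Prmt2 and Prmt3 were lost, and Gna13, Hsp90ab1 and Asl, named here after their values were seen, were gained. Without Vector replicate 2, 8 pathway genes were called.

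**Figure D4:**
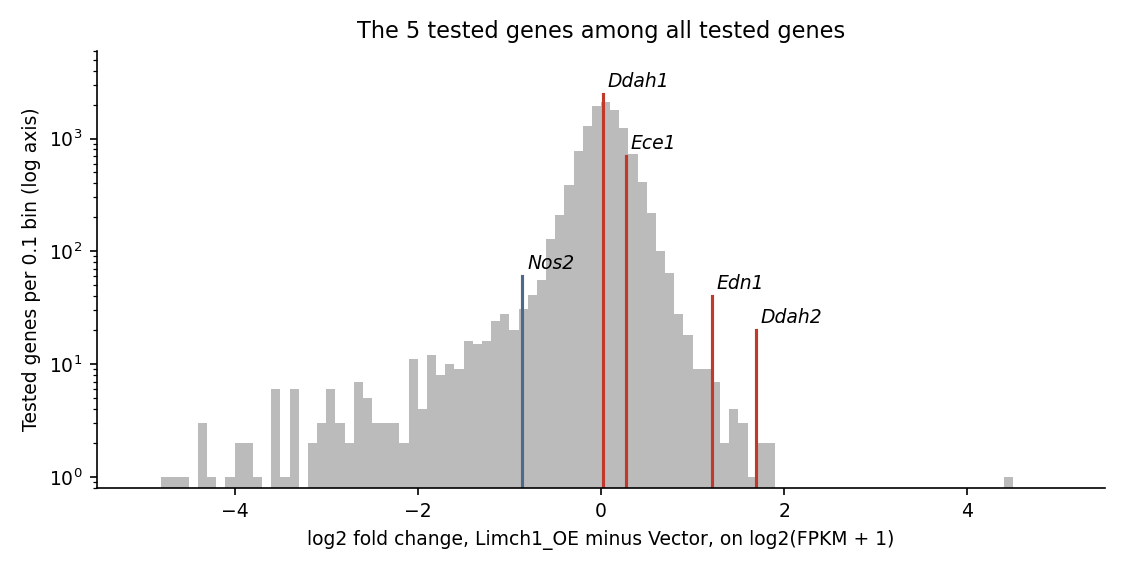
Distribution of log2 fold changes on log2(FPKM + 1), Limch1_OE minus Vector, over the 11842 tested genes (grey, log vertical axis), with lines for the 5 members, whose heights carry no value. Ddah2 at 1.70 and Edn1 at 1.21 lie in the sparse right tail, Nos2 at -0.86 in the longer left tail, and Ece1 at 0.28 and Ddah1 at 0.02 within the bulk.

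The order of levels differed between the groups, on the FPKM scale, which is per transcript length. In Limch1_OE, Nos2 at 38.7 FPKM was followed by Ddah1 at 26.03, Ddah2 at 24.8, Ece1 at 22.9 and Edn1 at 15.6 FPKM. There the libraries of Ddah1 overlapped those of Ddah2, and those of Ddah2 overlapped those of Ece1. In Vector, Nos2 at 70.7 FPKM was followed by Ddah1 at 25.7, Ece1 at 18.7, Ddah2 at 6.94 and Edn1 at 6.20 FPKM, and no neighbours in this order overlapped.

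The nearest tested genes on the chromosome were compared with the members. Clic1, a chloride channel gene that ends 286 bases before Ddah2 on the same strand, averaged 183.6 FPKM in Limch1_OE, against 187.2 FPKM in Vector, and did not pass the test (log2 fold change -0.03, SE 0.06, limma adjusted p = 0.728). On the other side of Ddah2, Abhd16a, 27168 bases away, did not pass either (-0.10, SE 0.10, limma adjusted p = 0.462). Nos2 ends 2720 bases from the end of Lgals9, the galectin-9 gene on the opposite strand, which averaged 12.9 FPKM in Limch1_OE, against 162.7 FPKM in Vector (log2 fold change -3.56, SE 0.06, limma adjusted p = 1.89e-09). On the other side of Nos2, Lyrm9, 73917 bases away, rose by 0.37 on the log2 scale (limma adjusted p = 0.0195). Hivep1, 108939 bases from Edn1 on the lower-coordinate side, rose by 0.32 (SE 0.07, limma adjusted p = 0.00728). Tbc1d7, 843750 bases from Edn1 on the far side, did not pass (0.04, SE 0.13). Bcl10, 28527 bases from Ddah1, rose by 0.22 (limma adjusted p = 0.0317). Ccn1, 108694 bases away on the other side of Ddah1, did not pass (-0.09, limma adjusted p = 0.18). Neither did the tested genes nearest Ece1, Rap1gap (0.00, at 132376 bases) and Eif4g3 (0.07, at 27793 bases). The tested genes nearest Ednra were Tmem184c, at 52333 bases, and Gm2225, at 761570 bases. Neither Tmem184c (0.20, limma adjusted p = 0.253) nor Gm2225 (0.23, limma adjusted p = 0.297) passed.

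Genes of most similar profile were found by Euclidean distance over the 6 libraries between log2(FPKM + 1) values, each gene set relative to its Vector mean. Closest to Edn1 were C1s1 (distance 0.18), Ptgs1 (0.26) and Ccl2 (0.30); C1s1 has a near-identical copy, with which it may share reads. Closest to Ddah2 were Cxcl5 (0.18), Cp (0.27) and Aqp8 (0.35). Closest to Nos2 were Plin2 (0.08), Sfn (0.12) and Daxx (0.13). For Ece1 they were Fads1 (0.04), Ank (0.06) and Ston1 (0.06), and for Ddah1 they were Ncapd3 (0.03), Fam221b (0.04) and Gak (0.04).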

How the data were processed

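Total RNA extracted with TRIzol was made into libraries by a standard Illumina protocol, per the labels. The authors deposited FPKM per transcript, to 2 decimals, for each library. Tools listed in the submitters' processing notes, with no role, are STAR 2.7.10, StringTie 2.2.1, featureCounts 2.0.1 and fastp 0.23.2, with build mm10. The sources used here give no annotation, strand setting or filter. Groups came from the titles, because other label fields number the cell line and the overexpressed gene consecutively. No 2 libraries held identical values. Whole-read steps were sought in low values of short genes and not found, which leaves depth unknown, and the precision is that of the spread between libraries.

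Listed transcripts were summed per gene. GENCODE M21 matched 26033 of 26094 gene identifiers. Genes at 1 FPKM or more in 3 or more libraries entered limma 3.58.1 in R 4.3.3 (intensity trend, two-sided, Benjamini-Hochberg threshold 0.05), on log2(FPKM + 1) with a pseudocount of 1. As a check of the code, the fit was run on simulated, independent normal values with known shifts. That check cannot address shared culture, RNA quality or scaling. Alternatives changed the pseudocount, the filter, the scaling, the trend, the transcript used, the replicate block and the libraries included.

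Members and gene lists were chosen with earlier results of these data known. One list gene is not reported here and is left out of the list counts, though not of the fit. The text names all members, each list gene past the threshold, the most abundant list gene that did not pass, some list genes at or near 0, the nearest tested neighbours and the 3 closest profiles. Tables and figures used Python 3.11.15, pandas 2.3.3 and matplotlib 3.10.9.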

Additional observations from a re-analysis of the deposited data

How the results depend on the processing

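The 4 called members kept their direction and stayed called in all 15 alternatives. Ddah1 was called in none and its log2 fold change ranged from -0.02, with median-ratio scaling, to 0.04. Edn1 ranged from 1.16 to 1.32, Ece1 from 0.24 to 0.29, Ddah2 from 1.62 to 1.82 and Nos2 from -0.91 to -0.79. When each gene was read from its most abundant transcript alone, 2004 genes were called (1004 higher, 1000 lower), against 4094 for the sum, and 5 pathway genes (1 higher, 4 lower), against 12. With median-ratio scaling 3 pathway genes were higher and 11 lower, in place of 5 and 7, and the median log2 fold change of all genes was 0.00 in place of 0.04. Leaving out 1 library at a time gave 2882 to 3778 called genes, 8 to 12 called pathway genes and, among these, 3 to 5 higher and 5 to 8 lower; the lowest number higher came without Vector replicate 2. With replicate number as a block, 3808 genes, 14 pathway genes (Vasp among them, limma adjusted p = 0.0243) and 4 members were called. The correlations of deviations between same-numbered libraries were -0.0017, 0.0456 and 0.0592, and not every library correlated best with its own number, so the numbers were not taken to pair the libraries. Unknown depth and 3 libraries a group limit the precision, above all for genes under 1 FPKM.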
